A study of Mus musculus with 40 samples.

Results

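Bipolar cells are the interneurons that carry signals from photoreceptors to the inner retina, and 9 genes of these cells were followed here: Scgn, Cabp5, Grik1, Isl1, Neurod4, Bhlhe23, Vsx1, Lhx4 and Otx2. They were taken by symbol from the deposited tables, which list 42037 gene symbols, and all 9 were found once each and passed the filter on low counts. The libraries are RNA-seq of 40 retinas from C57BL/6J mice, 4 for each of 10 groups, collected at postnatal day 17 (P17) or postnatal day 19 (P19). Of the 5 groups of an age, 1 is of control mice (labelled nOIR) and 4 are of mice with oxygen-induced retinopathy (OIR), a model in which pups breathe 75% O2 between P7 and P12 and then room air, so that retinal vessels are lost and later regrow abnormally. OIR mice had received 1 µl into the vitreous at P14. The injected solution held control IgG or the bispecific antibody B20.4.1_LC10, which binds VEGFA as well as ANG-2, at 0.4 µg/µl, or the anti-VEGFA clone B20.4.1 or the anti-ANG-2 clone LC10 at 0.2 µg/µl. VEGFA and ANG-2 are secreted vessel growth factors, bound by VEGF receptors and by the receptor TIE2. Each library was made from 1 whole retina, and neither an injection of the control mice nor the mouse or litter behind each retina is given. The p-values here therefore measure the spread between retinas within groups. That spread was estimated over all 10 groups together, except where a fit to the compared groups alone is named.

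Bipolar cells arise late in retinal development, after birth in the mouse, and divide into rod bipolar cells and many types of cone bipolar cells. ON types sense glutamate through the metabotropic receptor mGluR6 and the channel TRPM1, and OFF types through AMPA and kainate receptors. A cascade of homeodomain and basic helix-loop-helix (bHLH) transcription factors sets their fate: OTX2 acts in both photoreceptors and bipolar cells, NEUROD4 promotes bipolar genesis, and ISL1, LHX4, VSX1 and BHLHE23 act in the differentiation of subsets. In a whole retina, fewer bipolar cells and less RNA of a gene per bipolar cell cannot be told apart.

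Library totals ran from 9155090 to 25835054 expected counts. The tissue label was met in every library, since 10 rod photoreceptor genes together held 3.41% to 9.75% of scaled counts. Material from neighbouring tissue varied: 13 pigment epithelium genes summed to between 276 and 3151 CPM (counts scaled to a common library size), and 18 lens genes to between 9.95 and 5974 CPM. The scaling factor of 3 libraries lay outside 0.8 to 1.2, namely control replicate 3 at P17, anti-ANG-2 replicate 1 at P19 and bispecific replicate 3 at P19. In 7 libraries both Xist and Y-linked transcripts exceeded 10 CPM, although the labels describe 1 retina each: control replicates 2 and 4, IgG replicate 3 and bispecific replicate 3 at P17, and anti-VEGFA replicates 3 and 4 and anti-ANG-2 replicate 3 at P19. Y-linked transcripts exceeded 100 CPM in 4 of 4 IgG retinas at P19 and in 0 of 4 bispecific retinas at P19, so for that pair sex and antibody cannot be told apart. The same holds for anti-VEGFA (4 of 4) against anti-ANG-2 (0 of 4) at P17. EdgeR calls of the 9 genes are given below with and without both sets of libraries.

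Upstream sequences are shown for the 3 members called lower by edgeR with anti-ANG-2 than with IgG at P19 (Scgn, Isl1 and Neurod4). They are also shown for the 2 further members whose upstream bases hold homeodomain core motifs (Cabp5 and Otx2). They are the 250 bases before a RefSeq start site in GRCm38.p6, written 5′ to 3′ on the gene's strand, and capitals mark motif matches. RefSeq promoter entries matched 8 of the 9 members, all but Grik1. Scgn lies at chr13:23953456-23991214 (minus strand), Isl1 at chr13:116298281-116309689 (minus), Neurod4 at chr10:130268152-130280240 (minus), Cabp5 at chr7:13398132-13408887 (plus) and Otx2 at chr14:48657677-48673819 (minus), all protein-coding genes in the GENCODE annotation of GRCm38. The printed windows are chr13:23991215-23991464 for Scgn, chr13:116309689-116309938 for Isl1, chr10:130280139-130280388 for the first of the Neurod4 windows, chr7:13397905-13398154 for Cabp5 and chr14:48665110-48665359 for 1 of the Otx2 windows.
Scgn: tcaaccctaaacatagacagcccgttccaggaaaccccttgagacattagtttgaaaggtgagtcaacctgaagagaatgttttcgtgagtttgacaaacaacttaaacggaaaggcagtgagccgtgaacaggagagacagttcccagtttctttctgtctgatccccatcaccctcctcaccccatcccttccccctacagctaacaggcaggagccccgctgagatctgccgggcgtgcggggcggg
Isl1: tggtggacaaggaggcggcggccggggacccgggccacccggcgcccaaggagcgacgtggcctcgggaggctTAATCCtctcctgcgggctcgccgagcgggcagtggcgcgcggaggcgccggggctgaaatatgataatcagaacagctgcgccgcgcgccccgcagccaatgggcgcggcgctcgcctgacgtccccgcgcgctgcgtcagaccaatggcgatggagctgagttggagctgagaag
Neurod4: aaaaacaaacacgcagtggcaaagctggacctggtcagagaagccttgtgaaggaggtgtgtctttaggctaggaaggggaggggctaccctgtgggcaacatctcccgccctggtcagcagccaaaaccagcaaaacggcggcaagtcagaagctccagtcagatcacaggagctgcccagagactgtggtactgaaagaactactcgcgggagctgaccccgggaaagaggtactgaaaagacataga
Cabp5: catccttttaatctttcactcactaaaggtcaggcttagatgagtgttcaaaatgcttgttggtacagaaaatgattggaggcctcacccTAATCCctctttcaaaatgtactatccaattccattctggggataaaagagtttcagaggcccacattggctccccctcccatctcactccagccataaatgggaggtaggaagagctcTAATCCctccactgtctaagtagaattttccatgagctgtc
Otx2: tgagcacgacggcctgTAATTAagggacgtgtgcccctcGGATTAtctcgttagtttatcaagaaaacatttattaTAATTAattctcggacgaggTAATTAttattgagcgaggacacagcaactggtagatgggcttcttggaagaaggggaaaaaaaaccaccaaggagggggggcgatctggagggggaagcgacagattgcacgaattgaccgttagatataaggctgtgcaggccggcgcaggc
The core of OTX and CRX homeodomain sites, TAATCC, was searched on both strands. It stood upstream of Cabp5 at 160 and 41 bases before the start site, of Isl1 at 177 bases, and of Otx2 at 211 bases on the opposite strand, where it reads GGATTA. Of 32851 RefSeq windows of this length, 6.25% held it. The core TAATTA of VSX and LIM homeodomain sites, which shares its first 4 letters with TAATCC, was present in 4.84% of all windows and, among members, only in Otx2 windows. The bHLH motif CATATG (3.46% of all windows) was in no member window, and CAGATG (14.4%) was in another Otx2 window only. No match was found in the Scgn and Neurod4 windows. A match or its absence is a description of these letters alone.

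Compared per length, in TPM (a share of transcripts that accounts for their length), Scgn was the most abundant member at a mean of 233 ± 63.4 TPM (SD over the 40 retinas of all groups). Neurod4 followed at 148 ± 41.0 TPM and Otx2 at 135 ± 23.1 TPM, then Cabp5 at 91.4 ± 27.2 TPM and Isl1 at 82.1 ± 29.2 TPM. Grik1 had a mean of 38.7 ± 16.6 TPM and Bhlhe23 of 32.7 ± 10.9 TPM, and the least abundant were Lhx4 at 8.67 ± 3.52 TPM and Vsx1 at 7.07 ± 3.38 TPM. Neurod4 and Otx2, Cabp5 and Isl1, Grik1 and Bhlhe23, and Lhx4 and Vsx1 were neighbours whose ranges over the libraries overlapped widely. The lowest expected count of any member in any library was 54, for Vsx1, so no value below rests on an absence of reads. In TPM, which carries no correction for composition, anti-ANG-2 replicate 1 at P19 was the lowest library for each of the 9 genes, from 0.84 TPM for Lhx4 to 93.2 TPM for Otx2. That library had the lowest scaling factor of the 40 (0.743), and comparisons between groups were made on scaled counts in CPM.

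**Figure D1:**
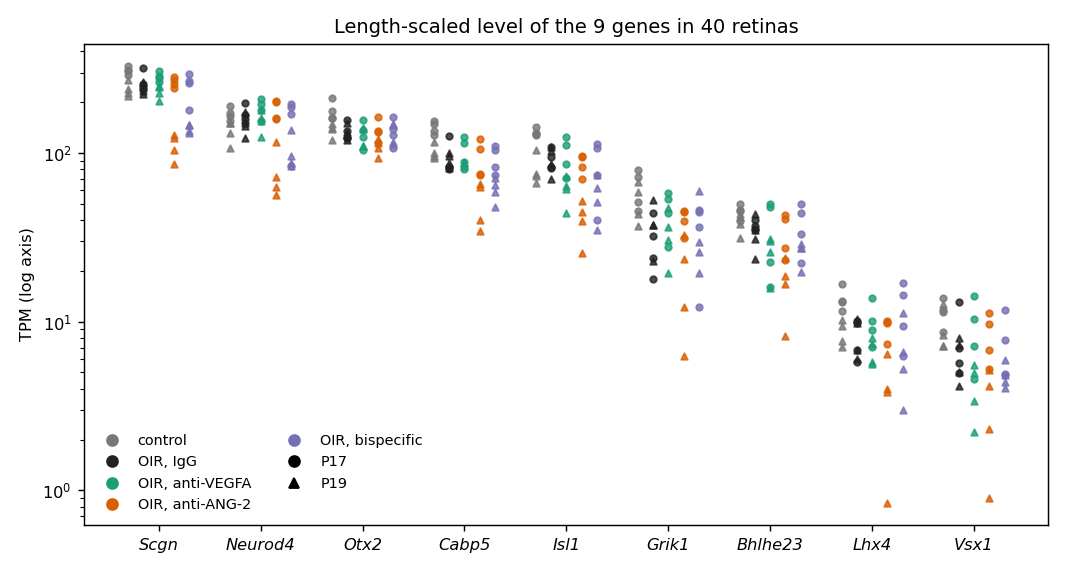
Level of each gene in TPM (log axis) in all 40 retinas, 1 point per retina, with colour for the condition and shape for the age. Scgn has the highest mean (233 TPM) and Vsx1 the lowest (7.07 TPM), and anti-ANG-2 replicate 1 at P19 is the lowest point of every gene.

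Scgn encodes secretagogin, an EF-hand calcium-binding protein found in many cone bipolar types. At P19 the 4 IgG retinas had 249.8, 230.4, 214 and 207 CPM, the anti-VEGFA retinas 226, 191, 219 and 227 CPM and the control retinas 201, 196, 185 and 168 CPM. The anti-ANG-2 retinas had 131, 124, 149 and 115 CPM and the bispecific retinas 139, 122, 96.5 and 142 CPM. All 8 retinas given an antibody that binds ANG-2 and collected at P19 were low, between 96.5 and 149 CPM. All other 32 retinas of the study were higher, between 165 and 261 CPM. The share of all genes separated in this way was not computed. At P17 the group means (SD, n = 4, as for all such values below) were 218 ± 35.4 CPM in controls, 233 ± 21.9 with IgG, 236 ± 17.1 with anti-VEGFA, 217 ± 2.22 with anti-ANG-2 and 212 ± 19.2 with the bispecific antibody. All P17 groups overlapped one another except that the 4 anti-VEGFA retinas lay above the 4 anti-ANG-2 retinas, as in 1.22% of all genes, a pair in which sex and antibody cannot be told apart. For no other member were these 8 retinas all below the rest: the highest of the 8 exceeded 4 of the 32 others for Neurod4, 5 for Isl1, 5 for Cabp5, 12 for Bhlhe23, 13 for Vsx1, 17 for Lhx4, 26 for Grik1 and all 32 for Otx2.

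Cabp5 encodes a calmodulin-like calcium-binding protein of rod bipolar cells and some cone bipolar types. At P19 it stood at 123, 115, 102 and 97.4 CPM with IgG, 68.9, 62.8, 95.3 and 79.7 CPM with anti-ANG-2 and 80.8, 71.5, 61.2 and 65.3 CPM with the bispecific antibody. All retinas of either group lay below the lowest IgG retina. With anti-VEGFA it was 105 ± 14.3 CPM and in controls 104 ± 7.76 CPM, both overlapping IgG. The P17 means were 131 ± 24.4 CPM in controls, 107 ± 16.9 with IgG, 109 ± 14.5 with anti-VEGFA, 100.02 ± 20.1 with anti-ANG-2 and 102 ± 10.4 with the bispecific antibody.

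Grik1 encodes the kainate receptor subunit GluK1, which carries glutamate input to OFF bipolar cells. At P17 control retinas had 110.5, 168, 132 and 111 CPM and IgG retinas 106, 87.7, 53.5 and 64 CPM, every IgG retina below every control, though the highest IgG and the lowest control were close. At P17 it was 114 ± 23.3 CPM with anti-VEGFA, 101 ± 10.7 with anti-ANG-2 and 86.6 ± 33.8 with the bispecific antibody. At P19 the means were 122 ± 27.6 CPM in controls, 100.4 ± 20.6 with IgG, 92.3 ± 19.3 with anti-VEGFA, 61.4 ± 31 with anti-ANG-2 and 85 ± 25.5 with the bispecific antibody. The anti-ANG-2 retinas at P19 alone ranged from 28.5 to 94.0 CPM, and all groups at P19 overlapped.

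**Figure D2:**
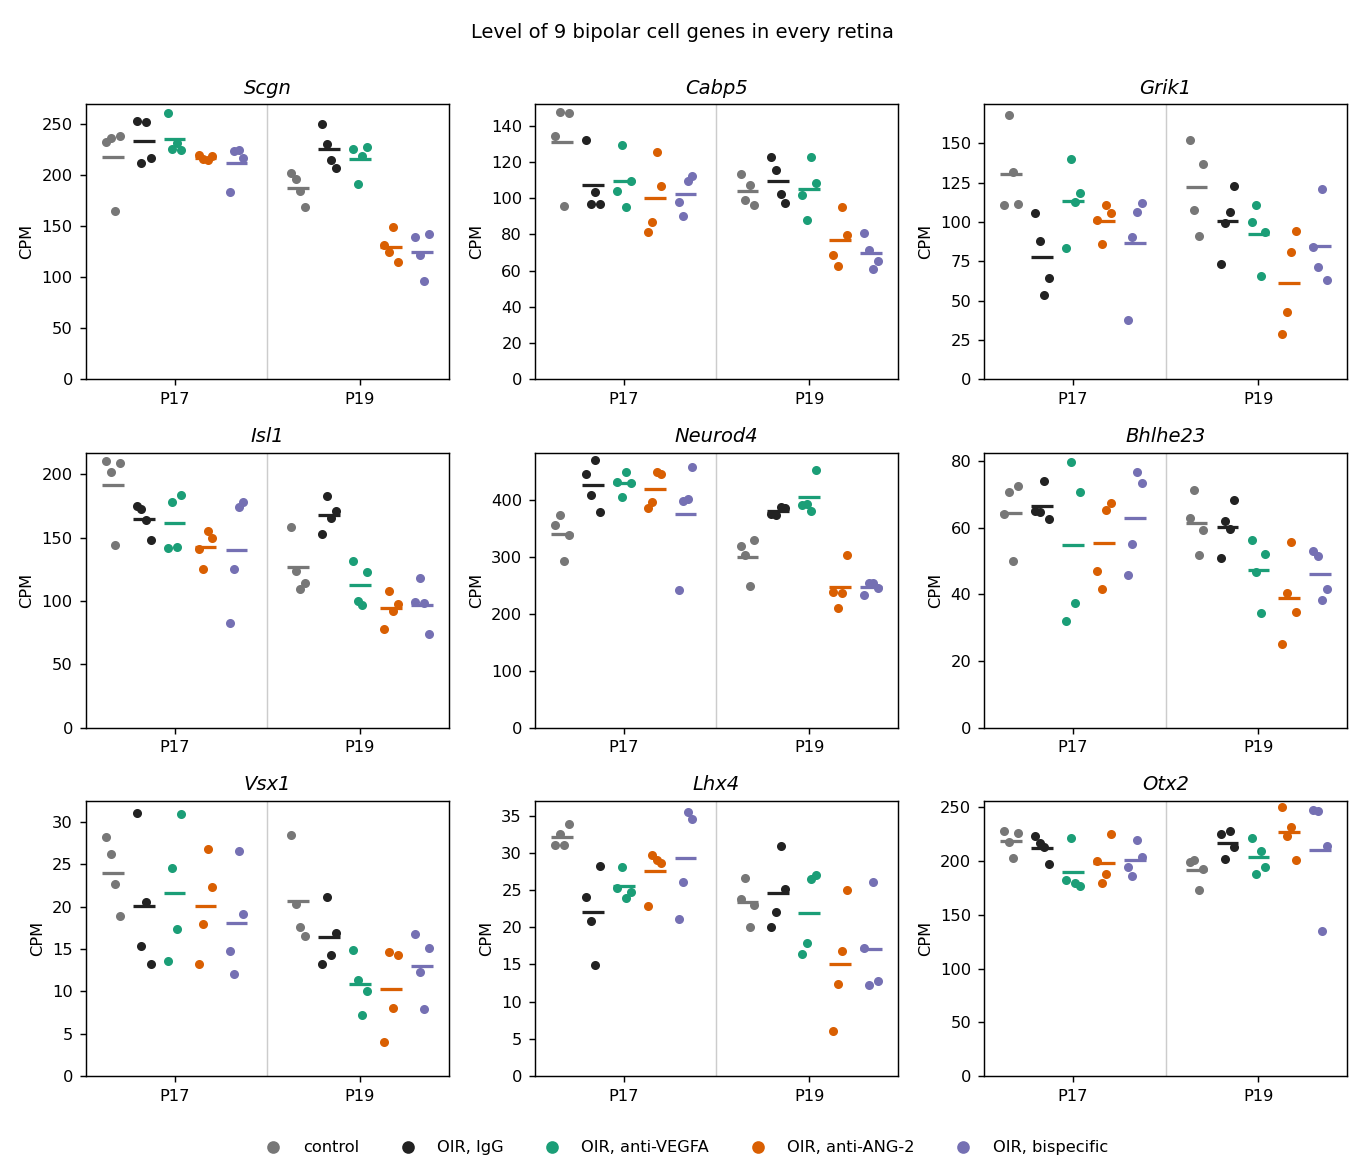
Level of the 9 genes in CPM (vertical axes start at 0) in every retina by age and condition, 1 point per retina and a bar at the mean of 4. For Scgn the 8 retinas given anti-ANG-2 or the bispecific antibody at P19 lie between 96.5 and 149 CPM, below all others. The share of all genes separated in this way was not computed. The bispecific retinas at P19 include both the lowest Otx2 value and values among the highest.

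Isl1, a LIM homeodomain factor of ON bipolar cells that is also made by ganglion and starburst amacrine cells, had 153, 183, 166 and 171 CPM in IgG retinas at P19. The anti-ANG-2 retinas had 78, 108, 92.6 and 98 CPM, the bispecific retinas 99.1, 118, 98.2 and 73.9 CPM and the anti-VEGFA retinas 132, 100.1, 97 and 123 CPM. All 12 antibody-treated retinas lay below the lowest IgG retina at this age. The share of all genes for which all 12 did so was not computed. The P19 controls, at 158, 124, 109.7 and 114 CPM, overlapped the IgG, anti-VEGFA and bispecific retinas and lay above all anti-ANG-2 retinas. The lowest control (109.7 CPM) and the highest anti-ANG-2 retina (108 CPM) were close. For that pair of groups the share of all genes was not computed either. At P17 the means were 191 ± 31.7 CPM in controls, 165 ± 12.3 with IgG, 162 ± 22.4 with anti-VEGFA, 143 ± 12.8 with anti-ANG-2 and 140.1 ± 45.3 with the bispecific antibody, with overlapping groups.

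Neurod4, a bHLH factor of bipolar genesis, was even in IgG retinas at P19, at 375, 373, 386 and 385 CPM. It was 391, 392, 380.4 and 453 CPM with anti-VEGFA, 239, 210.3, 236 and 303 CPM with anti-ANG-2 and 233, 254, 253 and 245 CPM with the bispecific antibody. The groups whose antibody binds ANG-2 lay wholly below both the IgG and the anti-VEGFA group. The controls, at 319, 302, 248 and 329 CPM, were also below IgG and overlapped the low groups. At P17 the means were 340.04 ± 34.4 CPM in controls, 425 ± 40.1 with IgG, 428 ± 18.3 with anti-VEGFA, 418 ± 33.2 with anti-ANG-2 and 374 ± 92.5 with the bispecific antibody. Every OIR retina given IgG was above every control of the same age.

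Bhlhe23, a bHLH factor needed for rod bipolar maturation, ranged from 25.04 to 79.7 CPM over the 40 retinas. Its P17 means were 64.3 ± 10.3 CPM in controls, 66.6 ± 5.06 with IgG, 54.9 ± 23.8 with anti-VEGFA, 55.3 ± 13 with anti-ANG-2 and 62.8 ± 14.7 with the bispecific antibody. Its P19 means, in the same order, were 61.3 ± 8.1, 60.2 ± 7.17, 47.4 ± 9.38, 38.9 ± 12.8 and 46.1 ± 7.24 CPM. The lowest mean was that of anti-ANG-2 at P19, whose retinas still overlapped each other group of that age. Of its exonic bases, 144 are shared with the gene model Gm14343 on the same strand, so its counts carry that uncertainty.

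Vsx1, a homeodomain factor of late cone bipolar differentiation, was the least abundant member. Its P17 means were 24 ± 4.11 CPM in controls, 20.1 ± 7.95 with IgG, 21.6 ± 7.73 with anti-VEGFA, 20.1 ± 5.84 with anti-ANG-2 and 18.1 ± 6.34 with the bispecific antibody. At P19 they were 20.7 ± 5.37, 16.4 ± 3.49, 10.9 ± 3.2, 10.2 ± 5.13 and 13 ± 3.89 CPM in the same order. The 3 antibody groups at P19 had the lowest means, and all overlapped IgG.

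Lhx4, a LIM homeodomain factor of cone bipolar types, was tight in P17 controls at 31.1, 32.5, 31.1 and 33.9 CPM, against 24.1, 20.8, 15 and 28.2 CPM with IgG, where every retina was lower. The other P17 means were 25.5 ± 1.84 CPM with anti-VEGFA, 27.5 ± 3.14 with anti-ANG-2 and 29.3 ± 6.91 with the bispecific antibody. At P19 anti-ANG-2 retinas spread from 6.03 to 24.96 CPM and overlapped the IgG retinas, whose mean was 24.6 ± 4.76 CPM. The P19 means were 23.4 ± 2.74 CPM in controls, 22 ± 5.6 with anti-VEGFA, 15 ± 7.96 with anti-ANG-2 and 17.1 ± 6.43 with the bispecific antibody.

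Otx2, a homeodomain factor of photoreceptors, bipolar cells and pigment epithelium, varied least between groups. Its P17 means were 219 ± 11.5 CPM in controls, 212 ± 11.3 with IgG, 190.01 ± 21.2 with anti-VEGFA, 198 ± 19.8 with anti-ANG-2 and 201 ± 14.5 with the bispecific antibody. At P19 they were 191 ± 12.8, 217 ± 12.1, 203 ± 15.1, 226 ± 20.1 and 210.4 ± 52.7 CPM in the same order. The wide spread of the last group came from replicate 3 at 135 CPM. Otx2 shares 154 exonic bases with the antisense gene Otx2os1, whose group means were 2.16 to 4.12 CPM, and 168 with Gm49154 on its own strand. Without strand, reads over the shared bases cannot be told apart.

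The OIR comparison asked how the disease state with IgG differed from control retinas. At P17 none of the 9 genes was called by edgeR's quasi-likelihood test, where 2.36% of the 23495 genes tested were called, and none was called by DESeq2, limma-voom or limma-trend on TPM. At an unadjusted p under 0.05, 2 members were lower and 1 was higher, beside 6.01% and 9.73% of all genes. Grik1 was 0.597-fold (log2 change −0.74 ± 0.28 SE, edgeR adjusted p = 0.151), with every IgG retina below every control. In a fit to these groups alone it was called (edgeR adjusted p = 0.0434). Lhx4 was 0.685-fold (log2 change −0.54 ± 0.26 SE, edgeR adjusted p = 0.292) and Neurod4 1.25-fold (log2 change 0.32 ± 0.13 SE, edgeR adjusted p = 0.214), both without overlap between groups. Non-overlapping libraries were found in 4.58% of all genes for lower and 6.82% for higher values, beside 2 and 1 of the 9 members. The median log2 change was −0.21 over the members and −0.05 over all genes. Pigment epithelium genes summed to 961 to 1865 CPM with IgG against 276 to 574 CPM in controls, and rod genes to 4.43% to 5.37% of scaled counts against 3.41% to 4.24%. With pigment epithelium and lens crystallin levels as covariates again no member was called and the members' median was −0.22, while Grik1 stood at −0.40 ± 0.30 SE in log2 (edgeR adjusted p = 0.846). The part of the rod share was not tested. Without the libraries of unusual scaling factor no member was called and the median was −0.28, with Grik1 at −0.74 ± 0.26 SE (adjusted p = 0.166). Without those holding both Xist and Y-linked transcripts none was called and the median was −0.10, with Grik1 at −0.52 ± 0.35 SE (adjusted p = 0.612).

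At P19 none of the 9 was called in OIR either by edgeR (0.919% of all genes called), DESeq2 or limma-trend on TPM, with 3 higher at an unadjusted p under 0.05 (7.68% of all genes). Limma-voom called Neurod4 (adjusted p = 0.0453). Neurod4 was 1.27-fold (log2 change 0.34 ± 0.14 SE, edgeR adjusted p = 0.239), Isl1 1.33-fold (log2 change 0.41 ± 0.17 SE, edgeR adjusted p = 0.28) and Scgn 1.2-fold (log2 change 0.27 ± 0.13 SE, edgeR adjusted p = 0.359). Neurod4, Scgn and Otx2 (1.13-fold) were higher in all 4 IgG retinas than in all controls, as were 6.64% of all genes. Isl1 overlapped through control replicate 1. Y-linked transcripts exceeded 100 CPM in 4 of 4 IgG and 2 of 4 control retinas at P19. The members' median log2 change was 0.08 against −0.05 for all genes. The difference between the OIR effects at the ages was not called for any member (edgeR adjusted p of at least 0.758, beside 0.00426% of all genes called), with 1 member, Isl1, at an unadjusted p under 0.05 (2.18% of all genes, upward).

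At P17, 3 days after injection, none of the 9 genes was called with any antibody against IgG by edgeR, DESeq2, limma-voom or limma-trend on TPM, and none reached an unadjusted p of 0.05. EdgeR called 0% of all genes in each of these comparisons. All antibody comparisons of an age use the same IgG libraries, so their values are given side by side and their likeness is not a result. For Scgn the fold against IgG was 1.01 with anti-VEGFA (95% interval 0.852 to 1.2), 0.929 with anti-ANG-2 (0.784 to 1.1) and 0.908 with the bispecific antibody (0.766 to 1.08). For Neurod4 it was 1.01 (0.84 to 1.21), 0.985 (0.82 to 1.18) and 0.88 (0.733 to 1.06). Grik1 had the largest change of the members, at 1.46-fold with anti-VEGFA (adjusted p = 0.999). Member medians in log2 were 0.01, −0.10 and −0.09 in the 3 comparisons.

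At P19, 5 days after injection, Scgn, Isl1 and Neurod4 were lower with anti-ANG-2 than with IgG. Of the 9 members, 3 were called lower and 0 higher by edgeR, where 0.0809% of all genes were called lower. The 9 genes were chosen with earlier results of these data known, so this count beside the share is a description and not a test. Scgn was 0.576-fold (log2 change −0.80 ± 0.13 SE, edgeR adjusted p = 0.0032). Isl1 was 0.56-fold (log2 change −0.84 ± 0.17 SE, edgeR adjusted p = 0.0254) and Neurod4 0.65-fold (log2 change −0.62 ± 0.14 SE, edgeR adjusted p = 0.0457). These 3 and Cabp5, which was 0.7-fold (log2 change −0.51 ± 0.15 SE, edgeR adjusted p = 0.152), were lower in all 4 anti-ANG-2 retinas than in all IgG retinas, as were 2.83% of all genes. DESeq2 and limma-trend on TPM called Cabp5 (adjusted p = 0.0473 and 0.0106). Lhx4 stood at 0.613-fold (adjusted p = 0.226), Grik1 at 0.612-fold (0.25), Vsx1 at 0.626-fold (0.373) and Bhlhe23 at 0.646-fold (0.206), none called by edgeR with all libraries. Limma-trend on TPM called Lhx4 and Bhlhe23 (adjusted p = 0.04996 and 0.0468), and edgeR called Lhx4 without anti-ANG-2 replicate 4 (0.0323). Without that replicate edgeR called 453 of the 23495 genes tested in either direction. With all libraries 19 were called lower, and the count in both directions is not given, so these numbers are not like for like. Otx2 was at 1.04-fold (95% interval 0.876 to 1.24). The median log2 change was −0.67 over the members and 0.03 over all genes.

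The Scgn call held without the 3 libraries of unusual scaling factor (edgeR adjusted p = 0.000174), without the 7 libraries holding both Xist and Y-linked transcripts (0.0127) and without any single library (0.0043 to 0.0316). It missed the threshold in a fit to the compared groups alone (0.0555). Isl1 lost its call without either set of libraries (0.116 and 0.165), with the mitochondrial share as a covariate (0.881) and without any 1 of IgG replicates 2, 3 and 4 and anti-ANG-2 replicates 1 and 3 (up to 0.172), and in 10 of 20 settings in all. Neurod4 lost its call without either set (0.111 and 0.175), without any single library but anti-ANG-2 replicate 4 (up to 0.199), with the mitochondrial share (0.734), with DESeq2-type size factors in edgeR (0.0623) and with no filter on low counts (0.0628), and in 14 of 20 settings in all. With Y-linked transcripts as a covariate the values were 0.0689 for Isl1 and 0.0797 for Neurod4, and in a fit to the compared groups alone 0.0555 and 0.208. The sign was negative in each of the 20 settings run for these genes. Y-linked transcripts exceeded 100 CPM in 2 of 4 anti-ANG-2 and 4 of 4 IgG retinas at P19. Mitochondrial and rod transcripts also separated the anti-ANG-2 from the IgG retinas at P19. Mitochondrial transcripts were 1.01% to 1.86% of unscaled counts against 0.461% to 0.753%. The 10 rod genes together were 6.73% to 9.75% of scaled counts against 4.59% to 6.50%. The scaling factors overlapped, at 0.743 to 0.986 with anti-ANG-2 and 0.903 to 1.02 with IgG, and a factor below 1 raises scaled values. With the mitochondrial share as a covariate Scgn kept its call (0.0272). As that share did not overlap between these groups, share and antibody cannot be told apart in this pair. The part of the rod share in these results was not tested.

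**Figure D3:**
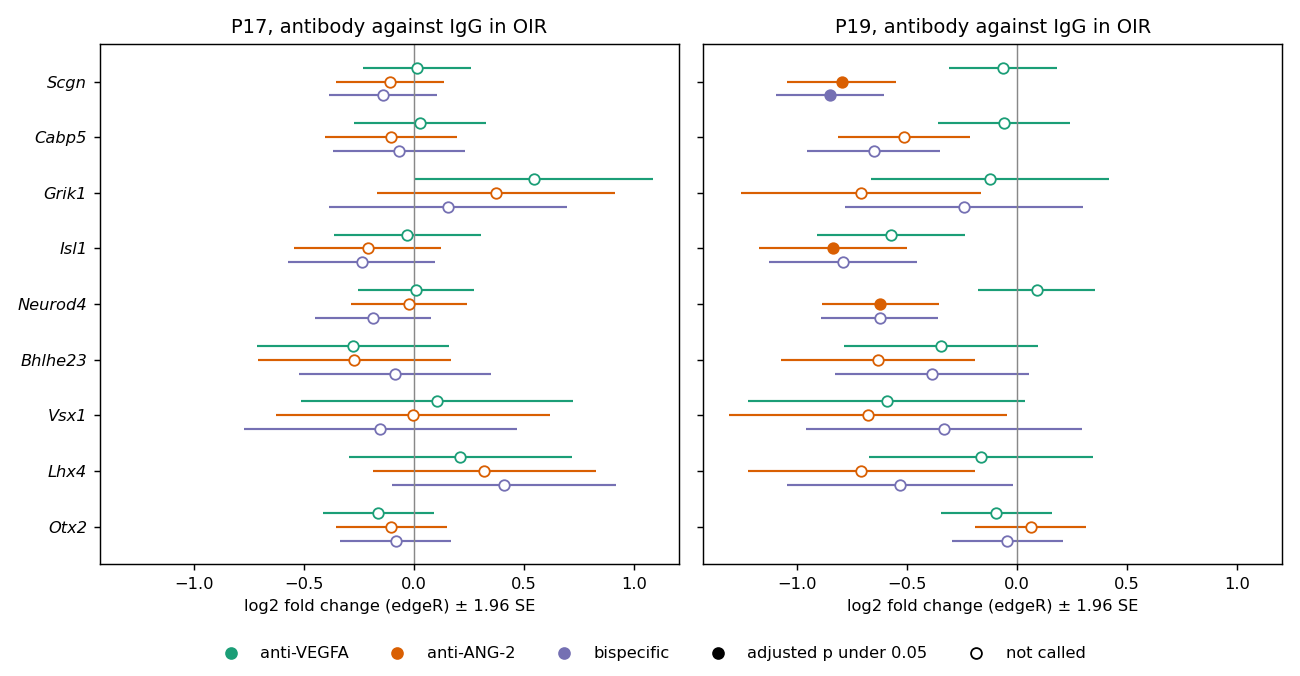
Log2 fold change of each gene against IgG in OIR for the 3 antibodies, at P17 (left) and P19 (right), from edgeR with bars of 1.96 SE. Filled points have an adjusted p under 0.05: Scgn with anti-ANG-2 (−0.80) and with the bispecific antibody (−0.85), Isl1 (−0.84) and Neurod4 (−0.62) with anti-ANG-2, all at P19.

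With the bispecific antibody at P19, Scgn was again lower than with IgG, at 0.555-fold (log2 change −0.85 ± 0.13 SE, edgeR adjusted p = 0.000819), the 1 member called (0.0426% of all genes called lower). Isl1 at 0.578-fold and Neurod4 at 0.649-fold both had an edgeR adjusted p of 0.0687, and Cabp5 was 0.637-fold (log2 change −0.65 ± 0.15 SE, edgeR adjusted p = 0.142). These 4 genes were lower in all 4 bispecific retinas than in all IgG retinas, as were 1.75% of all genes. DESeq2 called all 4 of them, and limma-voom called Scgn, Isl1 and Neurod4, without the share of all genes called by these tools given here. The other members had folds from 0.692 for Lhx4 to 0.97 for Otx2, and the median log2 change was −0.53 over the members and 0.03 over all genes. The Scgn call was lost with Y-linked transcripts as a covariate (edgeR adjusted p = 0.345) and in a fit to these groups alone (0.285). It held without the libraries of unusual scaling factor (0.000899), without those holding both Xist and Y-linked transcripts (0.00395) and without any single library (0.000862 to 0.011). Mitochondrial transcripts, at 0.573% to 0.967% of unscaled counts, and the rod genes, at 4.01% to 8.11% of scaled counts, overlapped the IgG retinas.

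With anti-VEGFA at P19 no member was called against IgG by edgeR, DESeq2, limma-voom or limma-trend on TPM, and edgeR called 0% of all genes. Isl1 alone reached an unadjusted p under 0.05 (6.07% of all genes were lower at that level), at 0.672-fold (log2 change −0.57 ± 0.17 SE, edgeR adjusted p = 0.3), with all 4 retinas below all IgG retinas (2.65% of all genes). Scgn was at 0.956-fold (95% interval 0.807 to 1.13) and Neurod4 at 1.06-fold (0.886 to 1.28). The intervals of Cabp5 (0.781 to 1.18), Lhx4 (0.627 to 1.27), Vsx1 (0.429 to 1.03) and Bhlhe23 (0.581 to 1.07) included 1. The members' median log2 change was −0.12.

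Set against each other at P19, the antibodies differed for Scgn and Neurod4. These comparisons share their antibody libraries with those against IgG and with one another. Scgn was 1.66-fold (log2 change 0.73 ± 0.13 SE, edgeR adjusted p = 0.0145) with anti-VEGFA relative to anti-ANG-2, and Neurod4 1.64-fold (log2 change 0.71 ± 0.14 SE, edgeR adjusted p = 0.0199), beside 0.183% of all genes called higher. With the bispecific antibody relative to anti-VEGFA, Scgn was 0.58-fold (log2 change −0.79 ± 0.13 SE, edgeR adjusted p = 0.00221) and Neurod4 0.61-fold (log2 change −0.71 ± 0.14 SE, edgeR adjusted p = 0.0155), beside 0.0511% called lower. In all 4 cases the groups did not overlap, which held for 2.64% of all genes (higher) in the first comparison and 1.6% (lower) in the second. These calls were lost without the 7 libraries holding both Xist and Y-linked transcripts, which include anti-VEGFA replicates 3 and 4 and anti-ANG-2 replicate 3. The adjusted p of Scgn was then 0.0933 and 0.357, and that of Neurod4 0.134 and 0.671. Without the libraries of unusual scaling factor the calls of Scgn (0.00108 and 0.000575) and Neurod4 (0.0499 and 0.00382) held. Scgn against anti-ANG-2 also lost its call without anti-ANG-2 replicate 1 (0.0671) or 2 (0.113), and both Neurod4 calls were lost without anti-VEGFA replicate 4 (0.0724 and 0.133). The first Neurod4 call was lost without anti-ANG-2 replicates 1, 2 or 3 (up to 0.161) and the second without bispecific replicates 1, 2 or 4 (up to 0.0949), with Y-linked transcripts (0.112) or with the mitochondrial share (0.0569) as a covariate. In fits to the compared groups alone none of these calls held (adjusted p of 0.206 or more). At P19 Y-linked transcripts exceeded 100 CPM in 2 of 4 anti-VEGFA, 2 of 4 anti-ANG-2 and 0 of 4 bispecific retinas. Cabp5 was 0.663-fold with the bispecific antibody relative to anti-VEGFA, without overlap, and not called (edgeR adjusted p = 0.143). DESeq2 called it (adjusted p = 0.0176), as did edgeR without the libraries of unusual scaling factor (0.0416). Relative to anti-ANG-2, anti-VEGFA was called higher for Cabp5 by DESeq2 (0.0396) and limma-trend on TPM (0.0255), and for Lhx4 by edgeR without anti-ANG-2 replicate 4 (0.036). Without that replicate edgeR called 1403 of the 23495 genes tested in either direction. With all libraries 43 were called higher, and here too the count in both directions is not given. Between the bispecific antibody and anti-ANG-2, which were injected at different concentrations, no member was called at P19 by edgeR, DESeq2, limma-voom or limma-trend on TPM, and none had an unadjusted p under 0.05. The fold was 0.964 for Scgn (95% interval 0.813 to 1.14), 0.998 for Neurod4 (0.831 to 1.2) and 1.03 for Isl1 (0.818 to 1.3). At P17 no member was called between antibodies by the same tests, where edgeR called 0% of all genes, nor had any an unadjusted p under 0.05.

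From P17 to P19 Scgn, Neurod4, Isl1 and Lhx4 fell in the retinas given anti-ANG-2, 4 of 9 members beside 1.51% of all genes called lower by edgeR. This comparison shares the P19 libraries with that of anti-ANG-2 against IgG, and the 9 genes were chosen with earlier results known. Scgn was 0.598-fold (log2 change −0.74 ± 0.13 SE, edgeR adjusted p = 0.00162) at P19 relative to P17, Neurod4 0.59-fold (log2 change −0.76 ± 0.14 SE, edgeR adjusted p = 0.00211), Isl1 0.66-fold (log2 change −0.60 ± 0.17 SE, edgeR adjusted p = 0.0326) and Lhx4 0.547-fold (log2 change −0.87 ± 0.26 SE, edgeR adjusted p = 0.0438). The first 3 did not overlap between ages, which held for 4.92% of all genes, and Lhx4 did. The Isl1 estimate was alike in control retinas, at a log2 change of −0.60 from P17 to P19. It was not called there (edgeR adjusted p = 0.255), where 0.0979% of all genes were called in either direction. Vsx1 was at 0.512-fold (adjusted p = 0.075), and Otx2 at 1.14-fold (adjusted p = 0.474). Vsx1 was called by DESeq2 (0.0253), by limma-trend on TPM (0.0128) and by edgeR without replicate 4 at P19 (0.0274). Limma-trend on TPM also called Bhlhe23 (0.018), Cabp5 (0.00341) and Grik1 (0.0242), and edgeR called Grik1 without replicate 4 at P19 (0.023) and with the pigment epithelium and crystallin covariates (0.0275). Without replicate 4 at P19 edgeR called 2334 of the 23495 genes tested in either direction, where 355 were called lower and 780 higher with all libraries. Each of the 4 calls was lost with the mitochondrial share as a covariate (adjusted p = 0.0785 for Scgn, 0.264 for Neurod4, 0.759 for Isl1 and 0.531 for Lhx4). Mitochondrial transcripts were 0.441% to 0.693% of counts at P17 and 1.01% to 1.86% at P19 in these retinas, so that share and age cannot be told apart. Y-linked transcripts exceeded 100 CPM in 0 of 4 retinas at P17 and 2 of 4 at P19. Without the libraries of unusual scaling factor Scgn (0.000849) and Neurod4 (0.00641) kept their calls, and Isl1 (0.112) and Lhx4 (0.167) did not. Without those holding both Xist and Y-linked transcripts the values were 0.00668, 0.0146, 0.108 and 0.0785. Isl1 was also lost without anti-ANG-2 replicates 1, 3 or 4 at P17 or 1 or 3 at P19 (up to 0.207), and Lhx4 without any single library but replicate 4 at P19 and in 14 of 20 settings in all.

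In the retinas given the bispecific antibody, Scgn fell from P17 to P19 to 0.59-fold (log2 change −0.76 ± 0.13 SE, edgeR adjusted p = 0.00336), the 1 member called, beside 0.017% of all genes called lower. It held without the libraries of unusual scaling factor (0.00398), without those with both Xist and Y-linked transcripts (0.0457) and without any single library (up to 0.0264), and was lost in a fit to these groups alone (0.819). Y-linked transcripts exceeded 100 CPM in 2 of 4 bispecific retinas at P17 and 0 of 4 at P19. Neurod4 was 0.659-fold (log2 change −0.60 ± 0.14 SE, edgeR adjusted p = 0.115). It was called by DESeq2 and limma-voom (adjusted p = 0.021 and 0.0045) and by edgeR without bispecific replicate 1 at P17 (0.00366). In control retinas no member was called by edgeR (0.0979% of all genes) or limma-trend on TPM, 2 had an unadjusted p under 0.05 (2.29% of all genes, lower), and all 9 had estimates below 0 at P19, as had 51.8% of all genes. Isl1 was 0.662-fold (log2 change −0.60 ± 0.17 SE, edgeR adjusted p = 0.255), and was called by DESeq2 (adjusted p = 0.0224) and limma-voom (0.0156). With IgG no member was called by any of the 4 tools (edgeR called 0.00851% of all genes), and none had an unadjusted p under 0.05. Scgn was then at 0.966-fold (95% interval 0.815 to 1.14) and Neurod4 at 0.894-fold (0.744 to 1.07). With anti-VEGFA no member was called by any of the 4 tools (edgeR called 0% of all genes) and 2 had an unadjusted p under 0.05 (5.74% of all genes, lower), Vsx1 at 0.504-fold (log2 change −0.99 ± 0.32 SE, edgeR adjusted p = 0.34) and Isl1 at 0.698-fold (log2 change −0.52 ± 0.17 SE, edgeR adjusted p = 0.348).

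Whether the antibody effects differed between ages was tested directly. No member passed in edgeR for any antibody, where 0% of all genes did, although 5 members had an unadjusted p under 0.05 for anti-ANG-2 (5.81% of all genes, downward), 5 for the bispecific antibody (1.94%) and 1 for anti-VEGFA (2.18%). For anti-ANG-2 the log2 effect against IgG differed (P19 minus P17) by −0.69 ± 0.18 SE for Scgn (edgeR adjusted p = 0.211) and by −0.60 ± 0.19 for Neurod4 (0.277). For both genes this difference was called by DESeq2 (adjusted p = 0.0134 and 0.0449) and by limma-voom (0.0392 and 0.0488), and for Scgn also by limma-trend on TPM (0.000362). For the bispecific antibody the Scgn difference was −0.71 ± 0.18 (edgeR adjusted p = 0.759, DESeq2 adjusted p = 0.0357).

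The other genes of bipolar cells were described by lists, which were also chosen with earlier results of these data known. With anti-ANG-2 against IgG at P19, all 15 genes of the ON cascade and rod bipolar list had estimates below 0, as had 47.7% of all genes, with none called. Their median log2 change was −0.51, against 0.03 for all genes. The 15 other bipolar transcription factors had a median of −0.50 with 11 below 0, the 19 cone bipolar type markers −0.30 with 15 below 0 and 1 called, and the 6 kainate receptor partners of Grik1 −0.43 with 4 below 0. With the bispecific antibody these medians were −0.31, −0.31, −0.17 and −0.25, and with anti-VEGFA −0.07, −0.16, −0.06 and −0.02. The gene called among the type markers was Gsg1, at 0.563-fold with anti-ANG-2 (edgeR adjusted p = 0.0205) and 0.545-fold with the bispecific antibody (adjusted p = 0.0187). With the bispecific antibody Gng13, a G-protein gamma subunit of ON bipolar cells, was also lower at 0.516-fold (adjusted p = 0.0254), a call lost with Y-linked transcripts as a covariate and without any 1 of IgG replicates 1 and 2 and bispecific replicates 2, 3 and 4. Gsg1 lost both calls without IgG replicate 1 or 2, the first also without anti-ANG-2 replicate 1 and the second without bispecific replicate 3 or 4. Both Gsg1 calls were also lost without the libraries holding both Xist and Y-linked transcripts (0.0904 and 0.0518), the first with the mitochondrial share (0.774) and the second with Y-linked transcripts (0.775) as a covariate.

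Other retinal cells were followed by marker lists in the same comparison. Rod genes had estimates above 0 with anti-ANG-2 at P19 in 10 of 10 cases (median log2 change 0.49, 0 called), cone genes in 10 of 10 (0.31, 0 called) and pigment epithelium genes in 11 of 13 (0.46, 0 called), whose summed level was 966 to 3151 CPM against 1010 to 1400.2 CPM with IgG. Amacrine genes had a median of −0.45 with anti-ANG-2, −0.44 with anti-VEGFA and −0.28 with the bispecific antibody, and Müller glia genes medians of −0.47, −0.61 and −0.53, with none called in either list. With pigment epithelium and lens crystallin levels as covariates, Scgn (edgeR adjusted p = 0.00344), Isl1 (0.034) and Neurod4 (0.0453) kept their calls with anti-ANG-2, and the members' median was −0.67 as without them. The part of the rod, cone, amacrine and Müller glia genes was not tested.

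**Figure D4:**
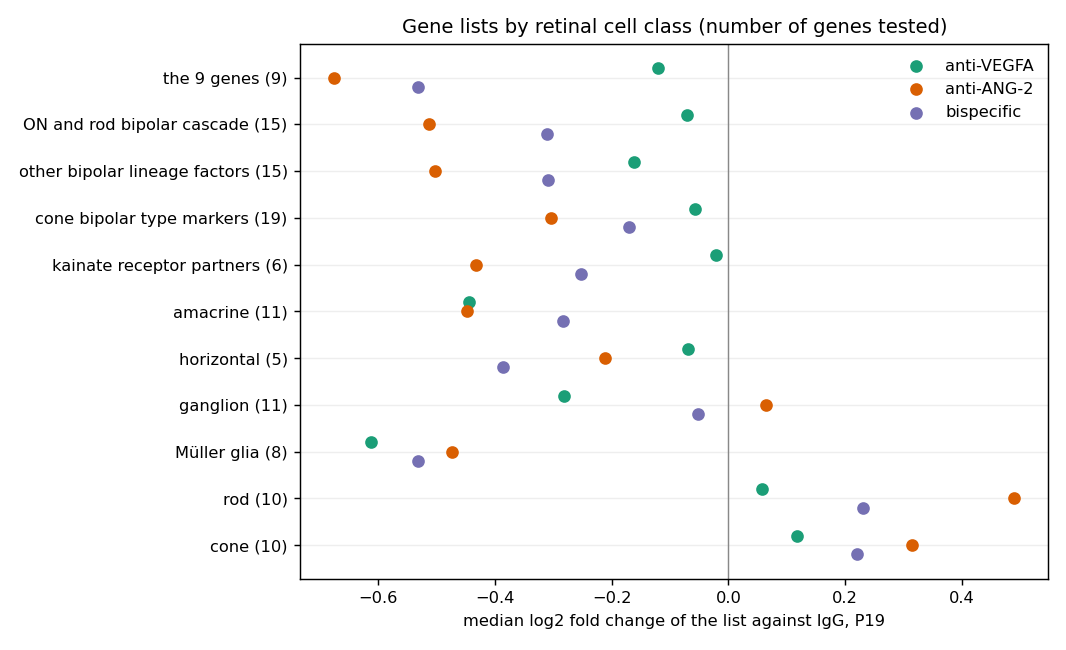
Median log2 fold change against IgG at P19 of each gene list, for the 3 antibodies, with the number of genes tested in brackets. With anti-ANG-2 the 9 genes have a median of −0.67 and the 4 other bipolar lists −0.51 to −0.30, while rod genes have 0.49. The medians of amacrine and Müller glia genes with anti-ANG-2 lie within the range of the 4 other bipolar lists.

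In the age comparison with anti-ANG-2, 4 of the 15 ON cascade genes, a list chosen with earlier results known, fell from P17 to P19. Of all genes, 1.51% were called lower. The ON cascade genes were Grm6, the glutamate receptor mGluR6 (0.404-fold, 53.1 ± 18.2 against 131 ± 18.8 CPM, edgeR adjusted p = 0.00506), Trpm1, the transduction channel (0.439-fold, adjusted p = 0.0117), Rgs11, a regulator of G-protein signalling (0.481-fold, adjusted p = 0.0199), and Gpr179, an orphan receptor of the cascade (0.421-fold, adjusted p = 0.0456). Fezf2, Nfia and Nfib, transcription factors, fell to 0.518-fold, 0.641-fold and 0.645-fold, and the type markers Igfn1 and Epha7 to 0.454-fold and 0.579-fold. All 9 lost their calls with the mitochondrial share as a covariate and without anti-ANG-2 replicate 1 at P19, Trpm1 also without the libraries holding both Xist and Y-linked transcripts, and the 7 other than Grm6 and Trpm1 also without at least 3 further single libraries. Over the same days 8 of 10 rod genes rose by edgeR (3.32% of all genes called higher). Rod genes also rose in control retinas, where 3 of 10 were called higher by edgeR (0.0979% of all genes called in either direction). Their sum there went from 3.41% to 4.24% of scaled counts at P17 to 5.19% to 5.87% at P19.

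In OIR with IgG, Nnat, the membrane proteolipid neuronatin, rose at P19 from 47.3 ± 4.42 CPM in controls to 105 ± 6.47 CPM (2.23-fold, edgeR adjusted p = 0.000709), a call kept in each of 20 alternative settings. In controls Nnat had fallen from P17 to P19 (0.511-fold, adjusted p = 0.0213), a call lost without any single library but control replicate 3 at P17. Gng13 rose in OIR at P19 (1.68-fold, adjusted p = 0.0355), and lost the call without any single library but IgG replicate 4. Sox6, a transcription factor, fell in OIR at P17 (0.593-fold, adjusted p = 0.0357), and lost the call without any single library but IgG replicate 1. Nnat and Sox6 are among the 19 type markers and Gng13 among the 15 ON cascade genes, whose other genes were not called in OIR. Of all genes, edgeR called 2.36% in OIR at P17 and 0.919% at P19. Epha7, an ephrin receptor among the type markers, was 1.95-fold with anti-VEGFA relative to anti-ANG-2 at P19 (adjusted p = 0.0379), with overlapping libraries. In that comparison 0.183% of all genes were called higher. Epha7 lost the call without anti-VEGFA replicate 2 or 4 or anti-ANG-2 replicate 1, 2 or 3.

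Over the 40 libraries, which share their groups and scaling, log2 levels of Scgn and Neurod4 had Pearson's r = 0.82 (Spearman's ρ = 0.68), and deviations from group means r = 0.27. Scgn and Cabp5 had r = 0.80 (ρ = 0.73) and r = 0.56 within groups. Isl1 and Bhlhe23 had r = 0.72 (ρ = 0.75) and r = 0.68 within groups, and Lhx4 and Grik1 r = 0.71 (ρ = 0.55) and r = 0.66 within groups. The r of Otx2 with the other members lay between −0.34 (Lhx4) and 0.19 (Bhlhe23) over the 40 libraries. Within groups it lay between −0.35 (Lhx4) and 0.54 (Scgn). Among the genes whose levels were most like the mean of the members over the 40 libraries were Tmem215 (r = 0.88), Foxn3 (r = 0.86) and Ndnf (r = 0.86). Trpm1 (r = 0.81) was among the first 10. Those most like Scgn were Qpct (r = 0.87), Gsg1 (r = 0.84) and Lrrn3 (r = 0.77). These are descriptions without a test.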

How the data were processed

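Polyadenylated RNA of 40 single mouse retinas was amplified with SMART-Seq and sequenced from Nextera XT libraries, per the labels' protocols, which mention neither strand nor molecular identifiers. The authors' deposited files hold expected counts and TPM per gene symbol. Per the submitters' processing notes STAR 2.7.10a, RSEM 1.3.3 and GRCm38.p4 were used, and which annotation was counted is not stated there. Expected counts were rounded, since 15.7% of nonzero values were not whole.

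Genes with enough counts by edgeR's filterByExpr (minimum count 10) were kept, 23495 of 42037 symbols. A quasi-likelihood model with TMM scaling was fitted to all 10 groups with edgeR 4.0.16 in R 4.3.3. It gave 19 comparisons and 4 differences between ages, with Benjamini-Hochberg adjustment over all genes and calls at 0.05. DESeq2 1.42.0 and limma 3.58.1 (voom, and trend on log2(TPM + 1)) served as alternatives. Fold intervals are 95% intervals of 1.96 SE. CPM were computed from scaled library sizes. Replicates differed by more than sampling noise, and none was counted as a duplicate. The fitting was tested on simulated data.

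The 9 genes and all gene lists were chosen with earlier results of these data known. Named genes were the members, list genes called by edgeR, and the genes most correlated with the members' mean or with a member. Some genes that this rule names are not reported here.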

Additional observations from a re-analysis of the deposited data

Results flagged for a closer look

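In 90 groups of 4 libraries (9 genes in 10 groups), 5 held a library whose gap to the nearest of the others exceeded Dixon's 95% critical value for 4 samples, and chance flags about 1 in 20 groups. Control replicate 3 at P17 stood low for 2 genes, Scgn at 164.9 CPM (the others 232 to 238) and Isl1 at 144.1 CPM (the others 202 to 210.3). That library is among the 3 with an unusual scaling factor. Neurod4 was high in anti-VEGFA replicate 4 at P19, at 452.6 CPM against 380.4 to 392 in the others. Otx2 was high in anti-VEGFA replicate 2 at P17, at 221.7 CPM against 177 to 182. Lhx4 was low in anti-ANG-2 replicate 1 at P17, at 22.86 CPM against 28.6 to 29.7.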

How the results depend on the processing

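Over the 3 antibodies against IgG at P19, edgeR made 4 member calls. The number was 8 with DESeq2, 7 with limma-trend on TPM, 1 with a Y-linked covariate, 2 with the mitochondrial share as a covariate, 2 without the libraries of unusual scaling factor, 2 without those holding both Xist and Y-linked transcripts, and 0 in fits to the compared groups alone. Leaving out 1 library gave 2 to 5, with 2 without IgG replicate 2, 3 or 4 or anti-ANG-2 replicate 1 or 3. From P17 to P19 there were 5 calls, against 3 with no filter on low counts, 8 with DESeq2, 9 with limma-trend on TPM, 1 with the mitochondrial share, 3 without either set of libraries, 3 in the compared groups alone and 3 to 7 without 1 library, with 3 without anti-ANG-2 replicate 1, 3 or 4 at P17 or replicate 1 or 3 at P19. Between antibodies there were 4, against 0 without the libraries holding both Xist and Y-linked transcripts, 0 in the compared groups alone and 2 to 5 without 1 library, with 2 without anti-VEGFA replicate 4 or anti-ANG-2 replicate 1 or 2 at P19. The 0 calls in OIR became 1 in the compared groups alone at P17 and 1 with limma-voom at P19. The 0 differences between ages became 3 with DESeq2, 2 with limma-voom and 1 with limma-trend on TPM. The antibodies at P17 gave 0 in each setting run. For DESeq2, limma and most other alternative settings, here and above, the share of all genes called is not given. Their member calls are therefore not set against all genes. The cause of these changes was not tested. Among single genes called, 390 alternative values kept their call, 210 lost it and 0 reversed. Limma-trend on TPM moved the median log2 change of all genes with anti-ANG-2 at P19 from 0.03 to −0.19. Under it Otx2 had −0.29 there, and with the bispecific antibody at P19 the sign of Otx2 also turned in several settings. Deviations of retinas with the same replicate number had a median r of 0.010 over 180 pairs, 18 of them over 0.1, against 20 of 540 pairs with other numbers. Of the 40 libraries, 19 were most like one of their own number, which 9 of the 36 candidates of each carry. Same-number pairs thus exceeded 0.1 more often than the others, though most did not. A pairing of only some retinas need not put every pair over 0.1, so this check cannot decide whether samples were paired. Since the labels state no shared animal or batch, the numbers were not used as pairs in the main fit. With the replicate number as a block the member calls were 4 for the antibodies against IgG at P19, 5 between ages, 4 between antibodies and 0 for the other comparisons. The 3 libraries with an unusual scaling factor and the 7 with both Xist and Y-linked transcripts were defined after the data were seen, as was the mitochondrial covariate. With 4 retinas a group, the intervals of Vsx1 and Grik1 were the widest on average over the comparisons.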
